A study of Rattus norvegicus with 12 samples.

Results

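The genes described here code for the lysosome and for the autophagy that feeds it: proteases, glycan and lipid hydrolases, membrane proteins, acid phosphatases, proton pump subunits, and a small autophagy group with the regulator Tfeb. The 47 genes were chosen by name for these roles, with earlier results of these data known. A gene counted as measured where a probe set of the array carried its symbol and no other. In all, 46 of the 47 genes were measured, on 65 of 31042 probe sets, out of 14217 genes with a probe set of their own. The remaining gene, Map1lc3b, shares its probe set with a second symbol and was not analysed here.

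RNA of F111 cells, a fibroblast line from a normal Fischer rat, was measured on Affymetrix rat expression arrays in 2 groups of 3 arrays. The Colony group was grown from NA16 cells, the survivors of 16 h in suspension, which were kept for 7 days in soft agar, freed from the agar and allowed to attach for a short time before RNA was taken. The A16 group was adherent F111 cells, collected 16 h after plating on plastic. Both groups were the same untreated line, with no transgene or drug, in medium with fetal calf serum. Colony cells are outgrowths selected in agar from an aneuploid line, so time in agar, reattachment and selection cannot be told apart in this design.

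Each group had an array of biological replicate 1, a second technical array and an array of biological replicate 2, and the technical array was averaged with biological replicate 1, which gave n = 2 cultures per group. Values are given in that order, as RMA intensity, a linear brightness that compares 1 probe set between arrays but not different genes with each other. Median RMA intensity ran from 97.6 to 99.4 over the Colony arrays and from 99.3 to 101 over the A16 arrays. For Colony replicate 2 a single label names tumour formation and the others name a colony, so it was kept as Colony, and counts without it are given below. Among 11 fibroblast markers 1 was higher and 5 were lower in Colony cells, with summed intensity of 56100 to 60800 on Colony arrays and 73000 to 83800 on A16 arrays. The lower ones were Col1a1 (log2 fold change -2.72), Col3a1 (-1.40), Thy1 (-1.31), Lum (-0.78) and Col1a2 (-0.61), and Pdgfra was higher (0.55). Col1a1 made up most of the gap between the sums, with 4294, 3254 and 2071 in Colony cells and 14535, 15448 and 22396 in A16 cells. Vim and S100a4 were bright in both groups, while Dcn, Lum and Fap were dim in both. Of 11 macrophage and leukocyte markers, Csf1r was higher (824, 620 and 538 in Colony cells, 44.9, 41.3 and 34.4 in A16 cells) and Cd14 was lower. Without Csf1r the summed intensity of this list was 986 to 1170 on Colony arrays and 1280 to 1460 on A16 arrays. Cd14 made up most of this sum, with 534, 664 and 697 in Colony cells and 1020, 1002 and 891 in A16 cells. Of 7 epithelial markers Krt8 and Cdh1 were higher, and the sum was 3190 to 3940 on Colony arrays against 935 to 1040 on A16 arrays. Krt8 made up most of this sum, and the other 6 markers summed to 269 to 295 on Colony arrays and 248 to 274 on A16 arrays. None of 3 measured osteoclast markers passed the test. The part of other cell types in the results below was not tested, and in such bulk RNA fewer cells of a type and less RNA per cell cannot be told apart.

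Lysosomes are acidic organelles in which hydrolases break down proteins, glycans and lipids that arrive by endocytosis or autophagy. Most of these enzymes are made in the endoplasmic reticulum and reach the lysosome through mannose 6-phosphate receptors, and a proton pump, the V-ATPase, keeps the lumen acidic. Many lysosomal genes carry an E-box in their promoter, to which Tfeb and its relatives bind, so that the genes can be switched on together. Secreted cathepsins are also known for degrading matrix around transformed fibroblasts.

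Promoters are shown because the shared E-box is the known sequence link among these genes. RefSeq sequences of build GRCr8, from 250 bases before to 50 bases after the annotated transcript start, were matched for 37 of the 47 genes. The E-box CACGTG, which reads the same on both strands, was present in 9 of 37 member promoters (24.3%) and in 1943 of 27457 promoters of all genes (7.08%). The longer TCACGTGA, which contains the E-box, was present in 5 members (13.5%) and in 0.896% of all promoters. These matches are a description of the letters and not of binding.

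The 250 bases before the start of 5 members are given below, 5′ to 3′ on the gene's strand, with each E-box in capitals. Ctsf (chr1:211581919-211582168, plus strand), Glb1 (chr8:122963468-122963717, plus strand) and Ctsd (chr1:206968822-206969071, minus strand) are the members with an E-box that were higher in Colony cells. Lamp1 (chr16:83075064-83075313, minus strand) has the most E-boxes, and Ctsh (chr8:99488506-99488755, plus strand) is a member that was lower in Colony cells and has none in this window.
Ctsf: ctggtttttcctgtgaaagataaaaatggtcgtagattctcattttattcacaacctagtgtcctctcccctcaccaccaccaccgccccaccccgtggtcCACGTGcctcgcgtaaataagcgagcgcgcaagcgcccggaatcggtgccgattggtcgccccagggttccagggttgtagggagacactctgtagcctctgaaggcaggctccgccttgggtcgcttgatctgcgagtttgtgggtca
Glb1: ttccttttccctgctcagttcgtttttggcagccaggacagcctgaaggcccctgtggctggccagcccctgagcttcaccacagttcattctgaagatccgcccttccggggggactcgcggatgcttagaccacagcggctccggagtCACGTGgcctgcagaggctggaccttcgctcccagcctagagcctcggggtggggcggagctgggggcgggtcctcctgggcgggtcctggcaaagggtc
Ctsd: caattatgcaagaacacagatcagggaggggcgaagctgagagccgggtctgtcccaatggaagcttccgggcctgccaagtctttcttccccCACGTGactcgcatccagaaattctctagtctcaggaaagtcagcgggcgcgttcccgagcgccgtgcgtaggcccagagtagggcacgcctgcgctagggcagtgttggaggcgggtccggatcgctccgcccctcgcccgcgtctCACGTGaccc
Lamp1: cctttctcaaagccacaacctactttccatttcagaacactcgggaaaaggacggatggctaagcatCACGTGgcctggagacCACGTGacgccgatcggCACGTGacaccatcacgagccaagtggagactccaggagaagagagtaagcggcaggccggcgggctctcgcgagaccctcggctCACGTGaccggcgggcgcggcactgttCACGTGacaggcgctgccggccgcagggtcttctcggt
Ctsh: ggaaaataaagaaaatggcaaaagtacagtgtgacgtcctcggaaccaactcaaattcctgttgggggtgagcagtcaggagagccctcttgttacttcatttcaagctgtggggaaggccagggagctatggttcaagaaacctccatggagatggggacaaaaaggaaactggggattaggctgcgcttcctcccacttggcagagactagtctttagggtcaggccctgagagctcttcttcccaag

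**Figure D1:**
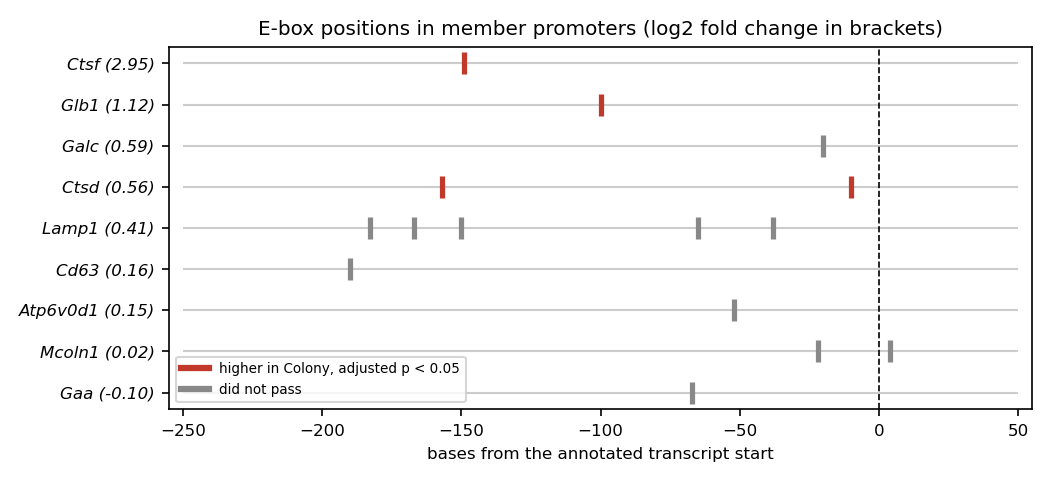
Position of each E-box (tick, first base) in the 300-base promoter windows of the 9 members that hold one; the x axis is distance in bases from the annotated transcript start, and the log2 fold change, Colony minus A16, stands in brackets. Red marks members higher in Colony cells, and Lamp1, which did not pass the test, holds 5 of the 15 ticks.

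Colony cells had higher RNA levels of a minority of the lysosomal enzymes and lower levels of a few, and most members did not pass the test. By limma, 13 of the 46 genes (28.3%) were higher in Colony cells at an adjusted p under 0.05, against a background of 12.9% of all 14217 genes. Another 3 genes (6.52%) were lower, against a background of 10.8%. With a fold change over 2 as well, 3 genes were higher (6.52%, background 4.36%) and 3 were lower (6.52%, background 4.75%). So 10 of the 13 higher genes differed by less than 2-fold. The background covers genes of any brightness and was not matched to the members in brightness. The median log2 fold change, Colony minus A16, was 0.15 over the members and 0.05 over all genes. All Colony arrays lay above all A16 arrays for 19 members (41.3%, background 26.7%) and below them for 7 (15.2%, background 20.9%), and for 20 members the arrays overlapped.

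Without Colony replicate 2, 8 members were higher and 2 were lower, and 1 lower member was still over 2-fold. The genes that then missed the threshold were Ctsd, Gla, Lipa, Gm2a, Fuca1 and Neu1, all with the same direction as before. By the brightness of probe sets on the A16 arrays alone, Lamp2, Gla and Asah1 would be represented by other probe sets that did not pass. Those probe sets are described with their genes.

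**Figure D2:**
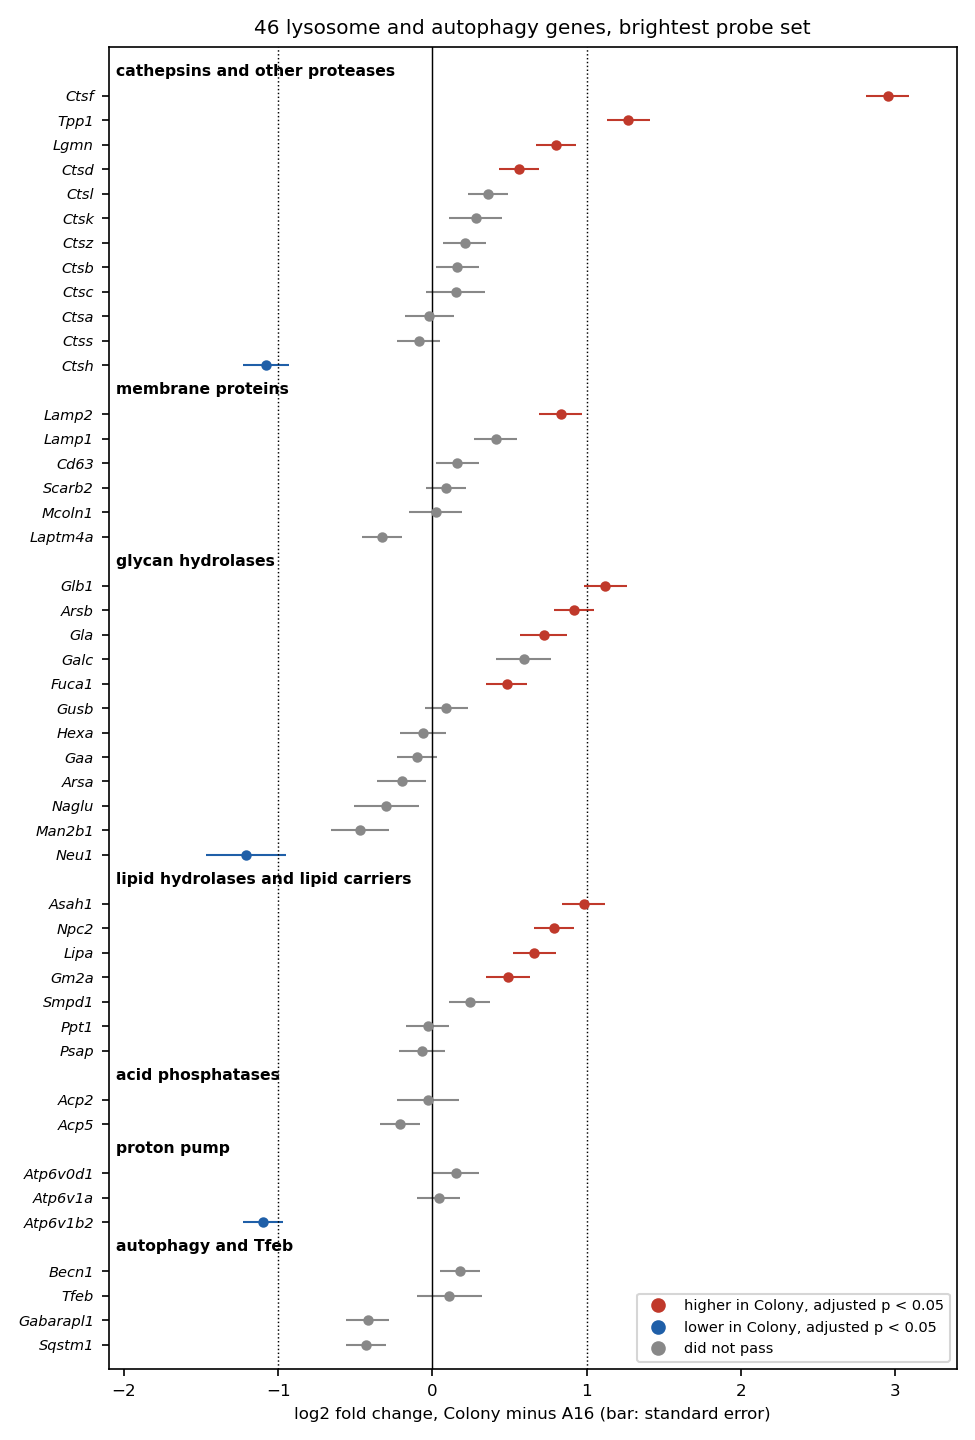
Log2 fold change (Colony minus A16, x axis) of the brightest probe set of each of the 46 measured members, grouped by role; bars are the standard error from limma and dotted lines mark a 2-fold change. Ctsf stands apart at 2.95, and the lower members Neu1, Atp6v1b2 and Ctsh lie between -1.21 and -1.08.

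Among 12 cathepsins and other proteases, 4 were higher in Colony cells (background 12.9%) and 1 was lower (background 10.8%). Their median log2 fold change was 0.25. Ctsf, a cysteine cathepsin, read 1344, 1253 and 1153 in Colony cells and 165, 172 and 149 in A16 cells. The groups were far apart, with mean log2 intensity of 10.26 ± 0.12 in Colony cells and 7.31 ± 0.13 in A16 cells (SD, n = 2 cultures each). The log2 fold change of Ctsf was 2.95 (SE 0.14, 7.72-fold, adjusted p = 4.41e-05), and it was 3.03 without Colony replicate 2. Tpp1, the tripeptidyl peptidase that trims peptides from their amino end, read 2205, 2246 and 2074 in Colony cells and 986, 704 and 947 in A16 cells. No Colony array came near the A16 arrays, and the log2 fold change was 1.27 (SE 0.14, 2.42-fold, adjusted p = 0.00116).

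Lgmn, legumain, cleaves after asparagine and processes cathepsins. It read 5544, 4960 and 4919 in Colony cells and 2977, 3103 and 2808 in A16 cells, with no overlap and a log2 fold change of 0.80 (adjusted p = 0.00614). A much dimmer Lgmn probe set overlapped between groups, with a log2 fold change of 0.06 (adjusted p = 0.861). Ctsd, the main aspartic protease of the lysosome, read 2665, 2382 and 2737 in Colony cells and 1763, 1687 and 1840 in A16 cells. All Colony arrays were higher, by 0.56 on the log2 scale (adjusted p = 0.0239), and Ctsd missed the threshold when any single culture was left out.

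Ctsh, a cysteine cathepsin that acts mainly as an aminopeptidase, went the other way. Ctsh read 33.4, 37.5 and 31.4 in Colony cells and 75.3, 77.4 and 65.2 in A16 cells. The groups did not overlap and the log2 fold change was -1.08 (SE 0.15, 2.11-fold lower, adjusted p = 0.00292), but the probe set was dim, its Colony mean lying at the 19.3 percentile of all probe sets. Of the 7 proteases that did not pass, Ctsl, an endopeptidase also secreted by transformed fibroblasts, depended on the probe set. The brighter one read 11509, 11642 and 12563 in Colony cells and 9239, 9582 and 9390 in A16 cells (log2 fold change 0.36, adjusted p = 0.0977). The other read 4048, 4155 and 3973 in Colony cells and 2410, 2255 and 2166 in A16 cells (log2 fold change 0.85, adjusted p = 0.00458). Both Ctsl probe sets were higher on all Colony arrays, and only the second passed. Ctsb (11134, 10214 and 9015 in Colony cells, 8957, 8824 and 8630 in A16 cells) also did not overlap, with a log2 fold change of 0.16 (adjusted p = 0.49). For Ctsa, Ctsc, Ctsk, Ctss and Ctsz the arrays overlapped, with log2 fold changes between -0.09 and 0.28. Ctsk and Ctss are typical of osteoclasts and of antigen-presenting cells.

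Of 6 membrane proteins only Lamp2 passed, and it was higher (background 12.9%). Lamp2 and Lamp1 are the heavily glycosylated proteins that line the inside of the lysosomal membrane. Lamp2 read 3387, 3428 and 3031 in Colony cells and 1801, 2048 and 1699 in A16 cells, a log2 fold change of 0.83 (SE 0.14, adjusted p = 0.00702) with no overlap. The second Lamp2 probe set overlapped between groups, with 2005, 2219 and 2428 in Colony cells and 1884, 1581 and 2247 in A16 cells (log2 fold change 0.20, adjusted p = 0.48). Thus the 2 probe sets of Lamp2 had the same sign and a different outcome. Lamp1 read 5497, 4829 and 4813 in Colony cells and 3660, 3350 and 4037 in A16 cells on its brightest probe set, which was higher on every Colony array but missed the threshold (log2 fold change 0.41, SE 0.14, adjusted p = 0.0858). The dimmest probe set of Lamp1 had the opposite sign (-0.45, adjusted p = 0.154). Laptm4a, a small transporter-like membrane protein, was below A16 on all Colony arrays (log2 fold change -0.33, adjusted p = 0.131). Cd63, Scarb2 (the receptor that carries glucocerebrosidase) and the calcium channel Mcoln1 overlapped between groups, with log2 fold changes between 0.02 and 0.16.

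Of 12 glycan hydrolases, 4 were higher (background 12.9%) and 1 was lower (background 10.8%), and the median log2 fold change was 0.01. Glb1, the β-galactosidase that gives the senescence-associated stain, read 4475, 3813 and 3463 in Colony cells and 1614, 1775 and 1795 in A16 cells. The lowest Colony array was well above the highest A16 array, and the log2 fold change was 1.12 (SE 0.14, 2.17-fold, adjusted p = 0.00239). Arsb, a sulfatase that acts on dermatan and chondroitin sulfate, read 2064, 2071 and 2062 in Colony cells and 1063, 1233 and 1047 in A16 cells. Its Colony arrays were nearly identical, with a log2 fold change of 0.92 (SE 0.13, adjusted p = 0.00342), while its dimmer probe set overlapped between groups (0.28, adjusted p = 0.36).

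Gla, the α-galactosidase missing in Fabry disease, was not settled. Its brightest probe set read 477, 576 and 556 in Colony cells and 342, 388 and 296 in A16 cells (log2 fold change 0.72, adjusted p = 0.0156). Its second read 291, 328 and 342 in Colony cells and 400, 389 and 369 in A16 cells (log2 fold change -0.23, adjusted p = 0.289). The arrays of the groups were apart on both probe sets, in opposite directions. Fuca1, which removes fucose, read 4775, 3721 and 4234 in Colony cells and 3087, 3351 and 2853 in A16 cells. The groups did not overlap, and the log2 fold change of Fuca1 was 0.48 (adjusted p = 0.0436), a result that missed the threshold when any single culture was left out.

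Neu1, the sialidase that takes terminal sialic acid from glycans, was lower. It read 209, 181 and 159 in Colony cells and 343, 278 and 534 in A16 cells, so the groups did not overlap but A16 replicate 2 stood above the other A16 arrays. The log2 fold change was -1.21 (SE 0.26, 2.31-fold lower, adjusted p = 0.0173), and without Colony replicate 2 it was -1.06 (adjusted p = 0.0743). The dimmer Neu1 probe set overlapped between groups, with 117, 88.0 and 104 in Colony cells and 114, 116 and 171 in A16 cells. Its log2 fold change was -0.45 (adjusted p = 0.169). In the lysosome Neu1 is active in a complex with Glb1 and the protective protein Ctsa. Of these partners Glb1 was higher, and Neu1 was lower on its brightest probe set only. Ctsa overlapped between groups, with 3161, 2708 and 2305 in Colony cells and 2763, 2747 and 2504 in A16 cells (log2 fold change -0.02, adjusted p = 0.962).

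Galc, which cleaves galactosylceramide, read 172, 202 and 181 in Colony cells and 135, 154 and 103 in A16 cells. All its Colony arrays were higher, but the difference of 0.59 on the log2 scale missed the threshold (SE 0.18, adjusted p = 0.0611). Gaa, which digests glycogen, overlapped on its brightest probe set (log2 fold change -0.10, adjusted p = 0.644). The dimmer Gaa probe set read 348, 243 and 226 in Colony cells and 521, 463 and 821 in A16 cells (-1.31, adjusted p = 0.0121), with A16 replicate 2 again the highest array. The same array was also the highest for the dimmer probe sets of Arsa (279 to 447 in Colony cells, 404, 451 and 736 in A16 cells) and Neu1. For Hexa, Gusb, Arsa, Man2b1 and Naglu the arrays of the brightest probe sets overlapped, with log2 fold changes between -0.47 and 0.09.

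Lipid hydrolases and lipid carriers were the class with the highest median, 0.49 on the log2 scale. Of these 7 genes, 4 were higher (background 12.9%) and none was lower (background 10.8%). Asah1, acid ceramidase, read 796, 857 and 771 in Colony cells and 422, 453 and 374 in A16 cells, with no overlap and a log2 fold change of 0.98 (SE 0.14, adjusted p = 0.00368). The second probe set of Asah1 overlapped, with 606, 522 and 446 in Colony cells and 402, 360 and 561 in A16 cells (0.12, adjusted p = 0.768). The outcome for Asah1 therefore differed between its probe sets. Npc2, which hands cholesterol to the membrane protein Npc1, read 7803, 6835 and 6861 in Colony cells and 4117, 4294 and 3966 in A16 cells. Every Colony array was higher, and the log2 fold change was 0.79 (SE 0.13, adjusted p = 0.00594).

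Lipa, the acid lipase that frees cholesterol from its esters, read 1052, 1069 and 1124 in Colony cells and 662, 637 and 733 in A16 cells. The groups were apart, with a log2 fold change of 0.66 (adjusted p = 0.0141) that became 0.62 (adjusted p = 0.0628) without Colony replicate 2. Gm2a, the activator that presents ganglioside to hexosaminidase, read 3032, 3294 and 2784 in Colony cells and 2169, 2223 and 2024 in A16 cells. It was higher on all Colony arrays by 0.49 on the log2 scale (adjusted p = 0.0449), the weakest of the passing results by adjusted p. Gm2a missed the threshold when any single culture was left out, and with the PLIER summary. Of the other lipid genes, Smpd1, acid sphingomyelinase, was higher on all Colony arrays without passing (log2 fold change 0.24, adjusted p = 0.265), and Ppt1 and the saposin precursor Psap overlapped (-0.03 and -0.07).

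**Figure D3:**
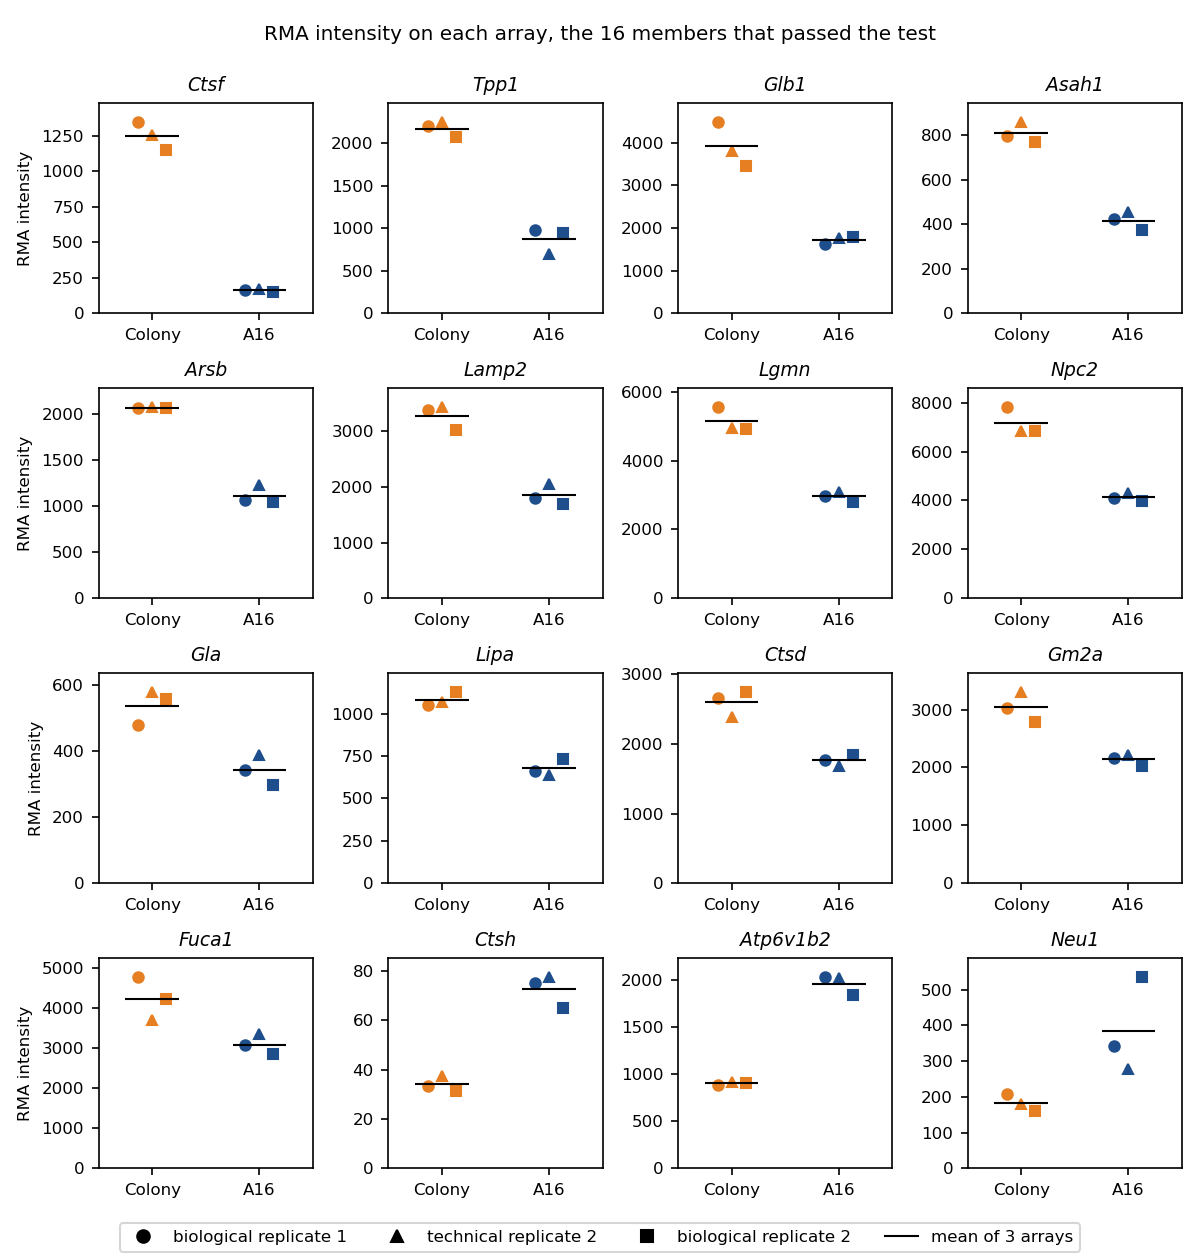
RMA intensity (y axis, linear, from 0) on each array for the 16 members that passed the test, Colony arrays left and A16 arrays right in each panel; the symbol marks the replicate and the line the mean of the 3 arrays. In every panel the arrays of the groups do not overlap, and the A16 arrays of Neu1 spread from 278 to 534.

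The acid phosphatases Acp2 and Acp5 did not pass. Acp2 read 701, 652 and 641 in Colony cells and 564, 543 and 813 in A16 cells, with a log2 fold change of -0.03 (adjusted p = 0.949). Acp5, the tartrate-resistant enzyme of osteoclasts and macrophages, read 25.2, 28.4 and 26.7 in Colony cells and 31.6, 31.0 and 30.6 in A16 cells (-0.21, adjusted p = 0.294). Both groups were thus near the low end of the array for Acp5, and Acp2 overlapped between groups.

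Of 3 proton pump subunits 1 was lower (background 10.8%). Atp6v1b2, a subunit of the cytosolic head of the V-ATPase, read 884, 920 and 902 in Colony cells and 2029, 2021 and 1840 in A16 cells. The Colony arrays were tightly grouped below all A16 arrays, and the log2 fold change was -1.10 (SE 0.13, 2.14-fold lower, adjusted p = 0.00169). The second probe set of Atp6v1b2 was also lower, with 466, 458 and 587 in Colony cells and 1630, 1419 and 1746 in A16 cells (-1.65, adjusted p = 0.000865). Atp6v1b2 was the only member with several probe sets on which more than 1 passed. Atp6v1a, the catalytic subunit of the same head, overlapped on its brightest probe set (log2 fold change 0.04) and was lower on the dimmer one, with 552, 577 and 698 in Colony cells and 873, 865 and 1021 in A16 cells (-0.59, adjusted p = 0.0437). Atp6v0d1, a subunit of the membrane part, read 3665, 2837 and 2669 in Colony cells and 2538, 2447 and 2799 in A16 cells, which overlapped (0.15, adjusted p = 0.555).

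None of the 4 measured genes of the autophagy group passed on its brightest probe set. Sqstm1 codes for p62, the adaptor that brings ubiquitin-tagged cargo to the autophagosome. It read 3553, 3289 and 3195 in Colony cells and 4318, 4389 and 4545 in A16 cells, which did not overlap but missed the threshold (log2 fold change -0.43, SE 0.13, adjusted p = 0.0564). Its second probe set read 1270, 1378 and 1559 in Colony cells and 2271, 2376 and 2001 in A16 cells and passed (-0.59, adjusted p = 0.0341), while 2 dim probe sets had the opposite sign without passing. Gabarapl1, a ubiquitin-like protein of the autophagosome membrane, had the same pattern. Its brightest probe set read 358, 333 and 337 in Colony cells and 440, 405 and 492 in A16 cells (log2 fold change -0.42, adjusted p = 0.078). Its dimmer one read 95.0, 88.5 and 103 in Colony cells and 181, 163 and 277 in A16 cells (-1.16, adjusted p = 0.0124). Sqstm1 and Gabarapl1 were thus below A16 on all Colony arrays on their brightest probe sets, with only the second probe set of each past the threshold.

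Becn1, a subunit of the lipid kinase that starts the autophagosome, was slightly higher on all Colony arrays (4183, 3669 and 4058, against 3416, 3410 and 3622 in A16 cells) without passing (log2 fold change 0.18, adjusted p = 0.386). Tfeb, the transcription factor of lysosomal genes, read 718, 582 and 420 in Colony cells and 482, 448 and 504 in A16 cells. Colony replicate 2 was the lowest of all 6 Tfeb values and Colony replicate 1 the highest, so the groups overlapped (log2 fold change 0.11, SE 0.21, adjusted p = 0.783).

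In all, 30 members had 1 probe set and 16 had several. Among those 16, the outcome of the test was the same on all probe sets of a gene for 5 and differed for 11, and 4 genes (Lamp1, Gla, Atp6v1a and Sqstm1) had probe sets of opposite sign. Counting any probe set, 14 of the 46 members had one that was higher (background 14.8% of all 14217 genes) and 7 had one that was lower (background 16.7%). Of the 65 probe sets 14 were higher and 8 were lower, against a background of 11.4% and 11.3% of all 31042 probe sets (22.7% in either direction). Probe sets of a gene can target different transcript ends, and where they lie on the transcripts was not analysed here.

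**Figure D4:**
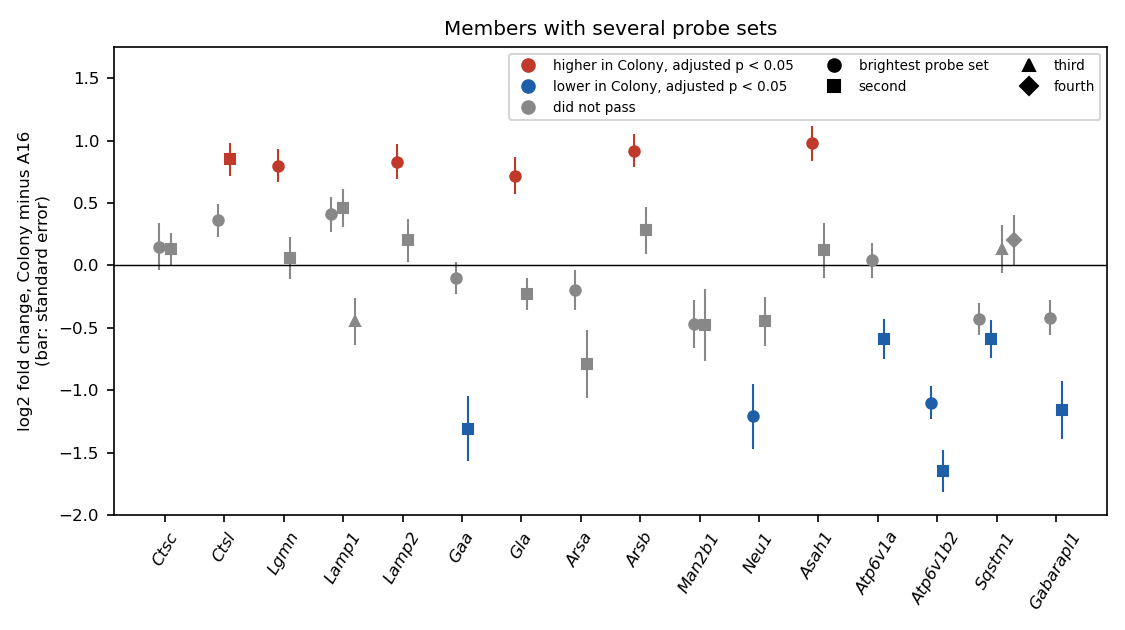
Log2 fold change (Colony minus A16, y axis) of every probe set of the 16 members that have several, with the standard error from limma; circles mark the brightest probe set and squares, triangles and diamonds the dimmer ones. Both probe sets of Atp6v1b2 were lower in Colony cells, at -1.10 and -1.65, while Gla lay at 0.72 and -0.23.

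E-boxes were found in members that were higher and in members that did not pass. An E-box was present in 3 of 11 higher members, in 0 of 2 lower members and in 6 of 24 members that did not pass, each among those with a promoter sequence. Lamp1, with 5 E-boxes, and Mcoln1 and Galc, each with a TCACGTGA, were among those that did not pass. Ctsd was the only member with TCACGTGA that passed.

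Other genes of the same pathways were counted from lists that hold no member, also chosen with earlier results of these data known. Of 30 other lysosomal hydrolases and membrane proteins, 6 were higher (background 12.9%) and 2 were lower in Colony cells (background 10.8%). Their median log2 fold change was 0.14. Dnase2, which digests DNA in the lysosome, read 1096, 980 and 919 in Colony cells and 126, 139 and 134 in A16 cells (log2 fold change 2.87, SE 0.13, adjusted p = 3.97e-05). Hgsnat, which acetylates heparan sulfate for its breakdown, read 1711, 1901 and 2045 in Colony cells and 691, 699 and 496 in A16 cells (1.71, adjusted p = 0.00126). Both genes were separated between groups by more than the spread of their arrays. Clcn7, the chloride and proton exchanger of the lysosomal membrane, read 107, 80.3 and 87.0 in Colony cells and 150, 149 and 238 in A16 cells (-1.07, adjusted p = 0.015), and missed the threshold without Colony replicate 2 (-1.03, adjusted p = 0.0587).

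Among 15 other proton pump subunits 2 were higher (background 12.9%) and 1 was lower (background 10.8%), with a median of -0.02. Atp6v0c, the ring subunit of the membrane part, was lower, with 6055, 4505 and 3568 in Colony cells and 6980, 7138 and 8309 in A16 cells (log2 fold change -0.83, adjusted p = 0.0288). Atp6ap2 (0.71, adjusted p = 0.0173) and Atp6v1d (0.61, adjusted p = 0.0171) were higher. These 3 results were not stable. Each missed the threshold without A16 replicate 2 and without Colony replicate 2. The log2 fold changes were then -0.71 and -0.55 for Atp6v0c, 0.68 and 0.55 for Atp6ap2, and 0.54 and 0.62 for Atp6v1d. Atp6v0c also missed it with the PLIER summary, without the technical arrays and with these averaged with replicate 2. Atp6ap2 also missed it without the technical arrays (0.64) and with the mean of its probe sets (0.35), and Atp6v1d without Colony replicate 1 (0.59).

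Of 38 other autophagy genes 7 were higher (background 12.9%) and 2 were lower (background 10.8%), with a median of 0.09. Optn, an adaptor like p62, read 713, 689 and 645 in Colony cells and 190, 228 and 212 in A16 cells (log2 fold change 1.68, adjusted p = 0.000281). The protease Atg4a, which trims the Atg8 proteins, read 534, 609 and 752 in Colony cells and 245, 251 and 228 in A16 cells (1.46, adjusted p = 0.0015). Tecpr1, which tethers autophagosomes to lysosomes, was higher by 0.91 (adjusted p = 0.0142), but missed the threshold without Colony replicate 1 (0.74). It also missed the threshold with the mean of its probe sets (0.49, adjusted p = 0.0805). The 2 lower genes of the list were Map1lc3a (-0.78, adjusted p = 0.0174) and Atg13 (-0.56, adjusted p = 0.0252), named here because there were only 2.

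Among 16 genes of mannose 6-phosphate and other lysosomal sorting, 1 was higher (background 12.9%) and 1 was lower (background 10.8%). Gga2, an adaptor that packs mannose 6-phosphate receptors into vesicles, was lower (log2 fold change -0.80, adjusted p = 0.0053). The adaptor subunit Ap3d1 was higher (0.48, adjusted p = 0.0402). The sign of Ap3d1 turned to -0.51 (adjusted p = 0.0664) with the mean of all its probe sets, and it missed the threshold when any single culture was left out. Of 6 cystatins and other cathepsin inhibitors 2 were lower (background 10.8%) and none was higher (background 12.9%). All Colony arrays lay below all A16 arrays for 3 of the 6 and above them for 2. The latter included Cstb, which did not pass (log2 fold change 0.39, adjusted p = 0.0817). Cst3, cystatin C, the main secreted inhibitor of cysteine cathepsins, read 1689, 1458 and 1634 in Colony cells and 3201, 3767 and 3388 in A16 cells (-1.10, SE 0.13, adjusted p = 0.00148). Serpinb6a, a serpin that inhibits serine proteases, had a log2 fold change of -0.80 (adjusted p = 0.0199), and missed the threshold without A16 replicate 1 (-0.57) and without either Colony culture (-0.77 and -0.84). All Colony arrays lay below all A16 arrays for both Cst3 and Serpinb6a.

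Of 19 genes of the TFEB family and of nutrient sensing 6 were higher (background 12.9%) and none was lower (background 10.8%). Their median was 0.11. Fnip2, a partner of folliculin, read 1530, 1789 and 2407 in Colony cells and 492, 535 and 435 in A16 cells (log2 fold change 2.08, SE 0.20, adjusted p = 0.000768). Its relative Fnip1 read 605, 757 and 1166 in Colony cells and 299, 422 and 442 in A16 cells (1.17, SE 0.26, adjusted p = 0.0201). Without the technical arrays Fnip1 missed the threshold (1.21, adjusted p = 0.0524). The Colony arrays of both genes spread widely and still lay above all A16 arrays. Ppp3cb, a catalytic subunit of the phosphatase calcineurin, was higher by 0.89 (adjusted p = 0.00438). Over these 6 lists together, 22 of 124 measured genes were higher (17.7%, background 12.9%) and 8 were lower (6.45%, background 10.8%).

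**Figure D5:**
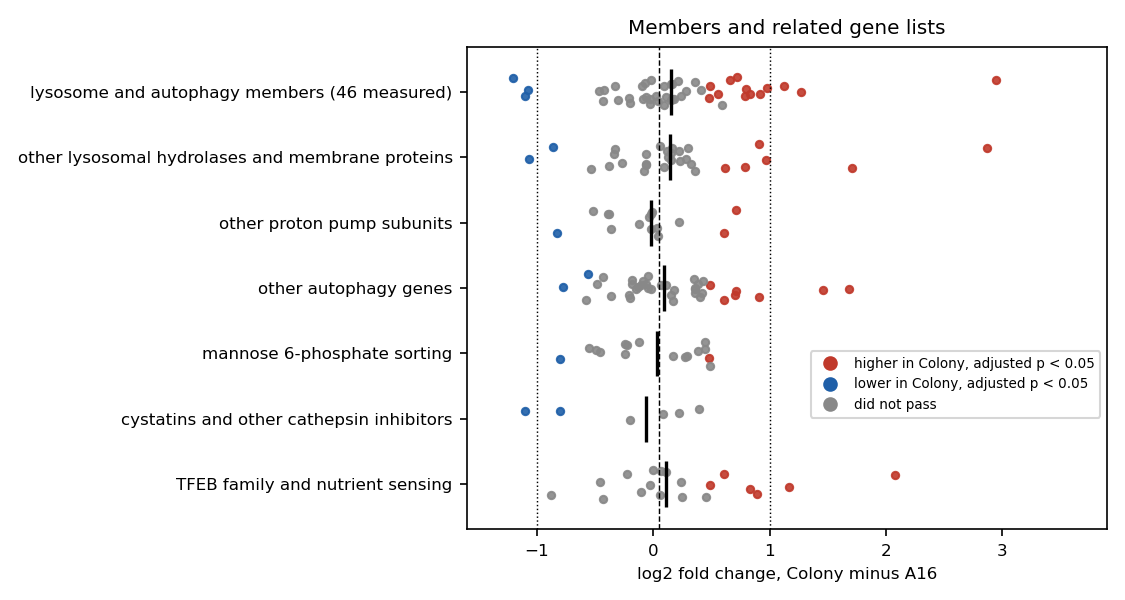
Log2 fold change (Colony minus A16, x axis) of every measured gene of the 46 members and of the 6 related lists, 1 point a gene on its brightest probe set; thick bars are list medians, the dashed line is the median of all genes at 0.05 and dotted lines mark 2-fold. Medians lie between -0.06 and 0.15, and the points furthest to the right are Ctsf and Dnase2.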

How the data were processed

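RNA of Colony and A16 cells was hybridised to 6 arrays. The authors read the scans with GeneChip Operating Software, summarised probe sets with RMA and PLIER in Avadis (these 3 with versions not given in the sources used here), and deposited both as linear intensity. Since RMA is a log2 method and the analysis was planned for log2 values, log2 of the deposited RMA intensity was taken with nothing added. Background subtraction and normalization between arrays were thus done before deposit, and compress differences of dim probe sets. No detection calls were used here.

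The 57 control probe sets were left out and 31042 were tested with lmFit and eBayes of limma 3.58.1 (R 4.3.3; prior degrees of freedom 4.757), two-sided, with Benjamini-Hochberg adjustment over all of them. All adjusted p-values come from this fit, or, where a left-out culture or another setting is named, from the same limma fit under that setting. The technical array, which has no biological number in the labels, was averaged with biological replicate 1, so n = 2 cultures per group. The labels say nothing more of the cultures. A p-value rests only on the spread between these samples, with the spread of each probe set moderated by limma towards that of all probe sets. A gene passed at an adjusted p under 0.05. Of the tested probe sets 20826 carry 1 symbol, 436 several and 9780 none; only the first name a gene, represented by the probe set brightest on average. Leaving out a culture leaves 1 in its group, whose spread is then assumed to be like the other group's. The number of arrays limits the precision. Scan dates and slides are not in the labels.

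The members and lists were chosen with earlier results of these data known. Full values were planned for members over 2-fold and for the 2 members of each class with the largest change; the other passing members and the dimmer probe sets were added after their values were seen, and up to 3 passing genes were named per other list. Symbols and promoters came from RefSeq, build GRCr8. The fit was tested on simulated data, and figures were drawn with Python 3.11.15 and matplotlib 3.10.9. Alternatives were PLIER values, other uses of the technical arrays, a replicate block, other scalings, a filter on dim probe sets, other choices of probe set and leaving out each culture.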

Additional observations from a re-analysis of the deposited data

How the results depend on the processing

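All 16 members that passed kept their direction under each of 15 alternatives chosen with the design, while 11 of the 30 others changed sign under some alternative and 7 passed under some. For all 16 the arrays of the groups were apart in RMA and in PLIER. Alternatives that only drop, average or regroup arrays could therefore not turn their direction, and the unchanged direction is no measure of stability there. Leaving out each culture in turn gave 8 to 10 higher members (13 with all), 2 to 3 lower (3 with all), 2 to 4 higher over 2-fold, 1 to 3 lower over 2-fold, and a member median of 0.10 to 0.17. Over all probe sets it gave 2455 to 3089 higher and 2656 to 3794 lower, and over the related lists 13 to 18 higher and 3 to 13 lower. The median of 0.10 came without Colony replicate 1 and the 13 lower genes of the lists without A16 replicate 1. The 8 higher members, the 1 lower member over 2-fold and both minima of the lists came without Colony replicate 2. The lower members numbered 6 with 6 arrays as separate samples, 6 with the technical arrays averaged with replicate 2, 5 with culture as a random block and 5 with the mean of all probe sets of a gene. For the related lists the lower genes numbered 18 with 6 separate arrays, 5 without the technical arrays, 14 with the random block and 13 with the mean of probe sets. The mean of probe sets turned Ap3d1 to -0.51, and the probe set brightest on A16 arrays, an alternative chosen after seeing the data, turned Gla to -0.23. The causes were not tested. On the culture means, the methods' t-test gave 0 genes in every count after Benjamini-Hochberg adjustment, and unadjusted 14 higher and 5 lower members and 3890 higher and 2941 lower probe sets.

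With the replicate number as a block, 12 members were higher and 3 were lower (Fuca1 and Gm2a missed the threshold and Galc passed), and over all probe sets 3346 were higher and 3604 lower. The deviations of same-numbered cultures correlated at -0.1477. With so few cultures per group, the sign of this correlation depends on how the cultures are numbered. It therefore cannot decide whether same-numbered cultures share more than a number. Crossed numbers, added after seeing the data, gave 14 higher and 4 lower members. Arrays give no depth. In their dimmer group, the dim probe sets of Ctsh, Acp5 and Ctsc lay at or below the 29.7 percentile of all probe sets.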

Other observations

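Several enzymes of sulfated glycan breakdown outside the 47 genes were higher in Colony cells, named here after their values were seen. Sumf1, which makes the catalytic residue that all sulfatases need, read 1040, 1125 and 1171 in Colony cells and 530, 517 and 632 in A16 cells (log2 fold change 0.97, SE 0.15, adjusted p = 0.00471, by limma). Ids, the sulfatase that opens heparan and dermatan sulfate breakdown, read 4117, 4623 and 5053 in Colony cells and 3177, 2894 and 3083 in A16 cells (0.62, SE 0.14, adjusted p = 0.0194). It missed the threshold without A16 replicate 1, without A16 replicate 2 and without Colony replicate 2 (0.61, 0.63 and 0.51). Ids also missed it without the technical arrays (0.54, adjusted p = 0.0678) and with log2 PLIER values with nothing added (0.62, adjusted p = 0.0511). With Arsb and Hgsnat, Sumf1 and Ids made 4 genes with no overlap between groups on their brightest probe sets, and the dimmer Arsb probe set overlapped. For 26.7% of all genes every Colony array lay above all A16 arrays. Other enzymes of the same routes did not pass, among them Idua (0.06, adjusted p = 0.819) and the members Gusb (0.09, adjusted p = 0.715), Naglu (-0.30, adjusted p = 0.386) and Arsa (-0.20, adjusted p = 0.444).

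Clcn7 was lower, and its partner Ostm1 was lower on all Colony arrays without passing, with 669, 577 and 634 in Colony cells and 764, 801 and 1059 in A16 cells (log2 fold change -0.54, adjusted p = 0.0699). A further cathepsin, Ctso, averaged 5.88 ± 0.18 on the log2 scale in Colony cells and 6.73 ± 0.11 in A16 cells (SD, n = 2 cultures each, difference -0.86, adjusted p = 0.00754), the same direction as Ctsh. Ctso was also rather dim, with 46.0, 63.4 and 64.2 in Colony cells and 99.5, 102 and 112 in A16 cells. Its Colony mean lay at the 36.2 percentile of all probe sets. Mitf, a relative of Tfeb, read 292, 337 and 328 in Colony cells and 214, 224 and 201 in A16 cells (0.61, SE 0.13, adjusted p = 0.0166), whereas Tfe3 overlapped between groups (0.25, adjusted p = 0.343). Whether Mitf differed from Tfeb was not tested.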
